A study of Bos taurus with 45 samples.

Results

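ACTB and GAPDH were the 2 genes examined, out of 24616 genes in a table of read counts from 45 single bovine demi-blastocysts. They were taken by identifier, ENSBTAG00000026199 for bovine ACTB and ENSBTAG00000014731 for bovine GAPDH, and both rows were present. The table names genes by Ensembl identifier only, so these 2 symbols were given with the identifiers and were not read from the table.

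ACTB encodes beta-actin, a building block of the actin filaments that give a cell its shape and that line the cell contacts of the trophectoderm, the outer layer of the blastocyst. GAPDH encodes glyceraldehyde-3-phosphate dehydrogenase, an enzyme of glycolysis, the pathway by which the embryo breaks down glucose. Both genes are widely used as reference genes, meaning that the level of another gene is divided by theirs on the premise that theirs is steady from sample to sample.

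Each demi-blastocyst was part of a day 7 blastocyst, made in vitro with sperm sorted for the X chromosome, and its other part was transferred to a synchronized recipient cow. The culture medium held no serum, and at day 5 it received either vehicle or 10 ng/ml recombinant bovine CSF2, the cytokine colony stimulating factor 2, until harvest at day 7. Recipients were examined at day 30 and day 60. Embryos fell into 29 with no pregnancy at day 30 (not established, 14 CSF2 and 15 vehicle), 6 with a pregnancy lost between the examinations (lost, 1 CSF2 and 5 vehicle) and 10 with a pregnancy at both (maintained, 5 CSF2 and 5 vehicle). The sequenced part held both trophectoderm and inner cell mass and, where the cut was uneven, was the smaller or less intact part, so the outcome belongs to the sister part. Fewer cells and less RNA per cell cannot be told apart in such samples.

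Of the 45 libraries, 40 held between 3906252 and 10326829 counts and are called the deeper libraries. The other 5 held between 137808 and 853817 counts and had 50 to 502 genes at 5 or more counts, against 1095 to 6137 in the deeper ones. Levels are in CPM, the count divided by the library total and multiplied by 1000000. Values are given for the deeper libraries first, then with all 45. Intervals for a single library cover counting error only. P-values of group comparisons and correlations judge a difference or relation against the spread between embryos.

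ACTB was read in every embryo, whereas GAPDH was nearly missing from some. ACTB reached 5 counts in 45 of 45 libraries, with an exact (Clopper-Pearson) 95% interval of 92.1% to 100%. GAPDH reached 5 counts in 39 of 45 libraries, or 86.7% (73.2% to 94.9%). Among the deeper libraries GAPDH reached 5 counts in 39 of 40 and 100 counts in 37 of 40, and ACTB reached 1000 counts in 40 of 40. In the 5 shallow libraries GAPDH reached 5 counts in 0 of 5, against 39 of 40 deeper ones (Fisher's exact test, two-sided, p = 4.9e-06). The libraries were split by their totals, and only 50 to 502 genes reached 5 counts in the shallow ones. The test therefore reflects depth and is not particular to GAPDH. The share of other genes with the same split was not counted.

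Relative to their own totals, the shallow libraries held less ACTB than the deeper ones, and GAPDH had 0 or 1 count in each. Their ACTB levels were 61.0 CPM in not established replicate 29, 191 CPM in not established replicate 8, 662 CPM in lost replicate 5, 1604 CPM in maintained replicate 8 and 2944 CPM in not established replicate 27. All of these lay under the lowest deeper library, at 3484 CPM. By count, ACTB still ranked 25 in not established replicate 27 and 26 in maintained replicate 8. It ranked 88 in lost replicate 5, 99 in not established replicate 29 and 301 in not established replicate 8. GAPDH had 1 count in not established replicate 8, whose total of 853817 counts gives an exact 95% interval of 0.0297 to 6.53 CPM. It had 1 count each in not established replicate 27 and maintained replicate 8, and no count in lost replicate 5 and not established replicate 29. A count of 0 there allows up to 4.36 CPM and 6.31 CPM (3 counts of the total), under the deeper libraries' median of 425 CPM.

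In the deeper libraries ACTB was among the most abundant rows of every embryo. It ranked between 3 and 25 by count among the 24616 genes of a library, with a median rank of 10.5. Its level averaged 9723 ± 3145 CPM (SD, n = 40), and the highest library had 4.71 times the level of the lowest. The middle of the distribution, between the quartiles, ran from 7346 to 11469 CPM.

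By outcome, ACTB in not established embryos ran from 4756 to 12810 CPM with a median of 9122 CPM (n = 26). The 5 lost embryos had 15368, 12312, 10376, 7841 and 10055 CPM for replicates 1, 2, 3, 4 and 6. The 5 maintained CSF2 embryos had 14865, 9150, 12808, 16412 and 11301 CPM for replicates 1, 2, 3, 9 and 10. The 4 maintained vehicle embryos had 15874, 8255, 3484 and 7982 CPM for replicates 4, 5, 6 and 7. All 3 outcome groups overlapped. Over all 45 libraries ACTB averaged 8764 ± 4053 CPM (SD, n = 45). Maintained replicate 6 was the lowest of the 40 deeper libraries, and among these 0 of 26 not established embryos lay above the highest or below the lowest embryo with a pregnancy.

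GAPDH varied more widely, from 0.254 to 2214 CPM over the same 40 libraries, a mean of 554 ± 467 CPM (SD, n = 40) and a median of 425 CPM. Over all 45 libraries it averaged 493.1 ± 473 CPM (SD, n = 45). Its rank within a deeper library ran from 46 to 2535. The lowest deeper library was not established replicate 14, where 1 count of GAPDH stood in a total of 3940101 beside 27309 counts of ACTB. The exact 95% interval of that level is 0.00643 to 1.41 CPM.

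Among the deeper libraries, the lowest levels of GAPDH were those of embryos that gave no pregnancy. Under 100 CPM, a level set after the values were seen, lay 6 of the 40 deeper libraries, all 6 not established, 3 with CSF2 and 3 with vehicle. These were replicate 14 at 0.254 CPM, replicate 25 at 2.56 CPM, replicate 7 at 16.3 CPM, replicate 9 at 26.6 CPM, replicate 4 at 28.4 CPM and replicate 16 at 53.0 CPM. Their ACTB levels, in the same order, were 6931, 4756, 10088, 6442, 9593 and 7296 CPM. These were inside the range of the other 34 libraries, whose lowest was maintained replicate 6 at 3484 CPM. The next lowest of those 34 was not established replicate 17, at 4765 CPM, just above replicate 25. Replicates 14, 25, 9 and 16 lay below the lower quartile of ACTB given above for the deeper libraries. Their totals ran from 3906252 to 7315467 counts, against 3994231 to 10326829 in the other 34 libraries. Their genes at 5 or more counts ran from 1095 to 3554, against 1585 to 6137. Replicates 25 and 14, with totals of 3906252 and 3940101, lay below all of the other 34 in total. Replicate 25 also lay below them in genes read. Not established embryos made up 26 of the 40 deeper libraries. How many other genes have their lowest levels in this group alone was not counted. Correlations of GAPDH with depth and with genes read over all 40 deeper libraries are given below. The part of either in these 6 low values was not tested.

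Not established embryos as a whole had a median of 357 CPM of GAPDH and a mean of 414 ± 374 CPM (SD, n = 26). The 5 lost embryos had 623, 1011, 326, 2214 and 839 CPM for replicates 1, 2, 3, 4 and 6, a mean of 1003 ± 724 CPM (SD, n = 5). The 5 maintained CSF2 embryos had 1257, 289, 959, 588 and 543 CPM for replicates 1, 2, 3, 9 and 10. The 4 maintained vehicle embryos had 934, 247, 1191 and 406 CPM for replicates 4, 5, 6 and 7. The lowest embryo with a pregnancy was thus maintained replicate 5, and 12 of 26 not established embryos lay below it, 7 of 12 with CSF2 and 5 of 14 with vehicle. With all 45 libraries, the lowest embryo with a pregnancy was lost replicate 5, which had no GAPDH count. No library can lie below 0 CPM, so the count of 0 of 29 not established embryos below it was fixed in advance. Maintained replicate 8 had 7.26 CPM, from 1 count, so low values were then not confined to embryos without a pregnancy. The groups still overlapped, since not established embryos reached 1324 CPM and only the 2214 CPM of lost replicate 4 lay above all of them. The share of other genes with as many not established embryos below every embryo with a pregnancy was not counted.

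**Figure D1:**
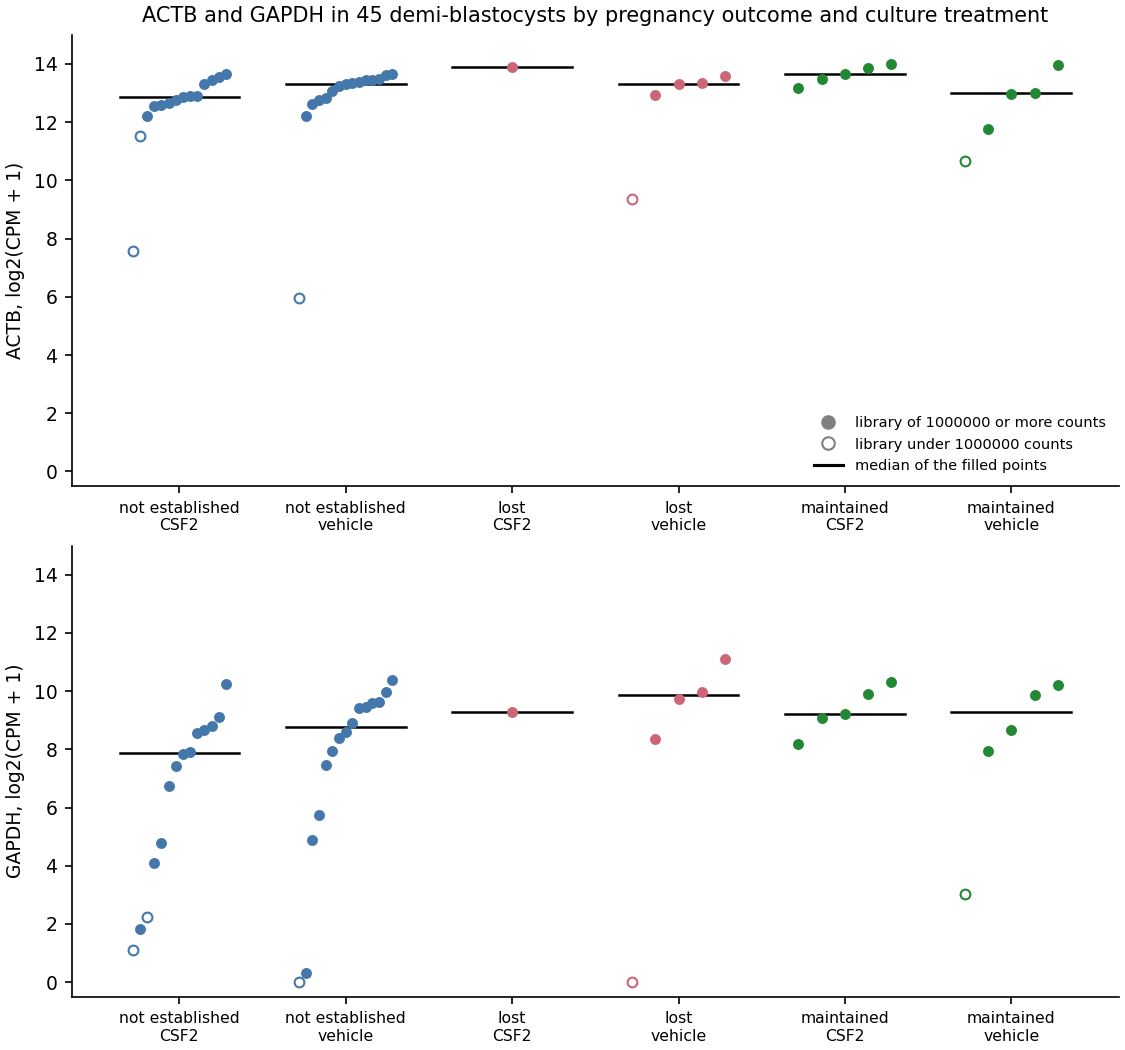
Levels of ACTB (top) and GAPDH (bottom) as log2(CPM + 1) in each of the 45 libraries, by pregnancy outcome and culture treatment. Filled points are libraries of 1000000 or more counts, open points the 5 below, and bars the medians of the filled points; GAPDH of the deeper not established libraries reaches down to 0.254 CPM while their ACTB stays at or above 4756 CPM.

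Whether the level of either gene differed with the outcome was tested in a model of all genes, with outcome and treatment as terms (edgeR's quasi-likelihood test, Benjamini-Hochberg adjustment over the genes tested). Both genes passed the filter on low counts. Against not established embryos, maintained embryos had an ACTB log2 fold change of 0.32 ± 0.28 (SE), with a 95% interval of -0.23 to 0.87 and an adjusted p of 0.999, and 0.19 without maintained replicate 4. GAPDH had 0.86 ± 0.75, with an interval of -0.60 to 2.33 (adjusted p = 0.999, edgeR). Of 7476 genes tested in this comparison, 0.134% were called, and 0 of the 2 members. In none of the 6 comparisons was a member called by edgeR or by DESeq2, and 0 of the 12 fits had an unadjusted p below 0.05 with either tool (smallest p = 0.149 with edgeR and 0.0636 with DESeq2).

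Lost against not established embryos gave a log2 fold change of 0.27 ± 0.35 (SE) for ACTB (interval -0.41 to 0.96, adjusted p = 0.903, edgeR) and of 1.03 ± 0.92 for GAPDH (interval -0.78 to 2.84, adjusted p = 0.757, edgeR). The ACTB value was 0.14 without lost replicate 1 and 0.44 without lost replicate 4. Here 0.0401% of the genes were called, and neither member. Between maintained and lost embryos the fitted difference was 0.046 ± 0.41 for ACTB (interval -0.76 to 0.86) and -0.16 ± 1.15 for GAPDH (interval -2.41 to 2.08), both with an adjusted p of 1 (edgeR). In that comparison 0.0% of the genes were called by edgeR, 1240 had an unadjusted p below 0.05, and DESeq2 called 603.

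All 14 deeper libraries with a pregnancy at day 30, lost and maintained together, were also set against the 26 without. ACTB had a log2 fold change of 0.30 ± 0.24 (SE; interval -0.16 to 0.77, unadjusted p = 0.203, adjusted p = 1, edgeR). GAPDH had 0.92 ± 0.64 (interval -0.33 to 2.18, unadjusted p = 0.149, adjusted p = 0.967, edgeR). Of the genes tested 0.615% were called, and neither member. The interval of ACTB reaches a log2 difference of 0.77 and that of GAPDH one of 2.18, so differences of those sizes are not outside what these libraries allow. Over all 7476 genes tested, the median log2 fold change was 0.049 in this comparison, -0.0052 for maintained and -0.49 for lost against not established embryos, and 0.53 between maintained and lost.

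Including the 5 shallow libraries widened the ACTB intervals. For any pregnancy against none the log2 fold change of ACTB was then 0.47 ± 0.82 (SE; adjusted p = 1, edgeR) and that of GAPDH 0.90 ± 0.77 (adjusted p = 1, edgeR). For lost against not established, ACTB went to 0.62 ± 1.14 (adjusted p = 0.958, edgeR) with all 45 libraries, and between maintained and lost it turned to -0.25 ± 1.34 (adjusted p = 0.996, edgeR). The scaling factors by TMM (trimmed mean of M values) lay between 0.0260 and 0.482 in these 5 libraries, against 0.903 to 1.67 in the deeper ones of the same fit. With library totals in place of TMM, 45 libraries gave ACTB 0.28 ± 0.42 for any pregnancy and GAPDH 0.96 ± 0.76.

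**Figure D2:**
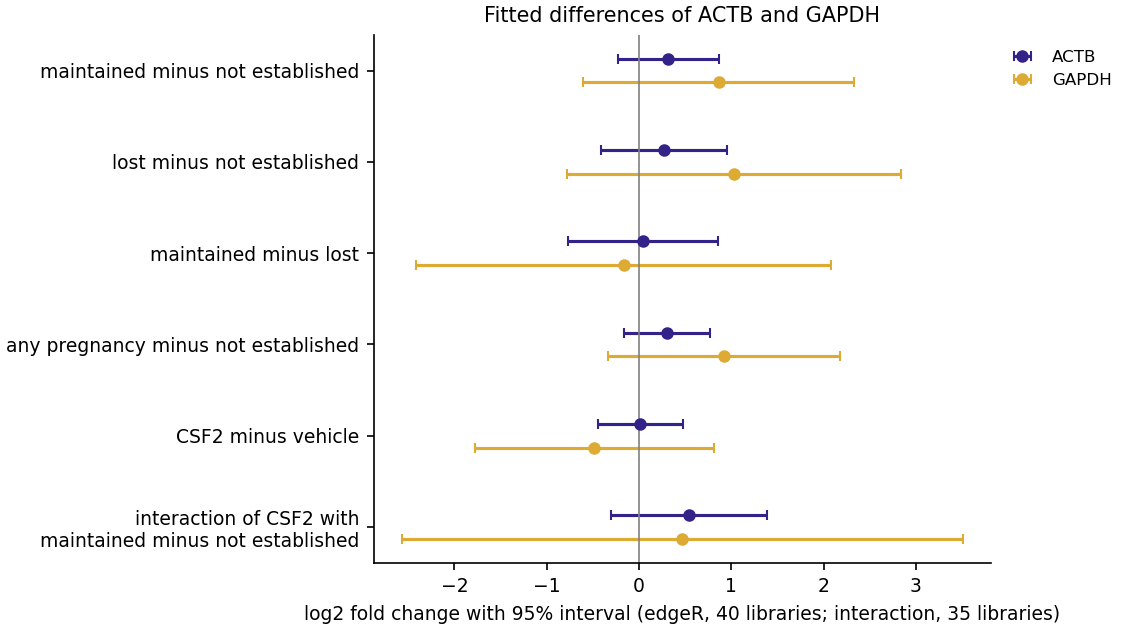
Fitted log2 fold changes of ACTB and GAPDH (x axis) in the 6 comparisons (y axis), with 95% intervals from edgeR on the 40 deeper libraries, or 35 for the interaction. All 12 intervals include 0, and those of GAPDH are wider than those of ACTB in each comparison.

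ACTB had like means with CSF2 and with vehicle. The 18 deeper CSF2 libraries averaged 9935 ± 3558 CPM (SD, n = 18) and the 22 vehicle libraries 9550 ± 2838 CPM (SD, n = 22). With outcome in the model, the log2 fold change was 0.016 ± 0.24 (SE; interval -0.44 to 0.48, adjusted p = 1, edgeR). With all 45 libraries it was 0.21 ± 0.80 (adjusted p = 1, edgeR).

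GAPDH averaged 447 ± 380 CPM (SD, n = 18) with CSF2 and 642 ± 520 CPM (SD, n = 22) with vehicle. CSF2 libraries ran from 2.56 to 1257 CPM with a median of 393 CPM, and vehicle libraries from 0.254 to 2214 CPM with a median of 583 CPM. The fitted log2 fold change was -0.48 ± 0.66 (SE; interval -1.78 to 0.81, adjusted p = 1, edgeR), so the difference did not pass the test, and the value was -0.79 without not established replicate 5. Of the genes tested, 0.669% were called between the treatments, with a median log2 fold change of 0.0076 over all of them, and neither member was called.

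Within outcomes, the not established embryos had a median of 234 CPM of GAPDH with CSF2 (n = 12) and 433 CPM with vehicle (n = 14). Among maintained embryos, the medians were 588 CPM with CSF2 (n = 5) and 670 CPM with vehicle (n = 4). For ACTB the medians were 7502 and 10209 CPM in not established embryos, and 12808 and 8119 CPM in maintained embryos, so the treatment with the higher median changed with the outcome. The test of that difference, an interaction term, gave a log2 value of 0.54 ± 0.43 (SE; interval -0.31 to 1.39, adjusted p = 1, edgeR) for ACTB and 0.47 ± 1.55 (interval -2.57 to 3.51, adjusted p = 1, edgeR) for GAPDH. Here 0.0% of 5010 genes were called by edgeR, 268 had an unadjusted p below 0.05, and DESeq2 called 469. The median over all genes was 0.21, and 0.36 with library totals in place of TMM. Without maintained replicate 4 the ACTB value was 1.03, and without maintained replicate 6 it was 0.26. The GAPDH value was 0.17 without maintained replicate 5 and 0.92 without not established replicate 5. With all 45 libraries the ACTB value was -0.062 ± 1.45 (adjusted p = 1, edgeR), and with library totals for those 45 the ACTB value was 1.09 ± 0.98.

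The ratio of ACTB to GAPDH counts within a library does not depend on the library total or on scaling. It is a ratio of counts, not of transcripts per length. GAPDH counts amounted to a median of 4.19 per 100 ACTB counts in the deeper libraries, and ran from 0.00366 in not established replicate 14 to 34.2 in maintained replicate 6. In the latter, ACTB was the lowest of its group (3484 CPM) and GAPDH among the higher ones (1191 CPM). Lost replicate 4, at 28.2 per 100, was the next highest.

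As a log2 ratio with 0.5 counts added to each gene, ACTB over GAPDH averaged 5.59 ± 2.65 (SD, n = 26) in not established embryos. The averages were 4.05 ± 1.07 (SD, n = 9) for maintained and 3.73 ± 1.23 (SD, n = 5) for lost embryos. The difference between all 14 embryos with a pregnancy, at 3.94 ± 1.10 (SD, n = 14), and those without was -1.66, with a permutation p of 0.0259 before and 0.129 after Benjamini-Hochberg adjustment over the 5 comparisons made. It did not hold after adjustment. Of the 26 not established embryos, 10 had fewer GAPDH counts per 100 ACTB counts than the lowest embryo with a pregnancy (2.998, maintained replicate 5). How often other pairs of genes do so was not counted.

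Taken singly, maintained minus not established embryos gave -1.54 (exact permutation test, two-sided, p = 0.0937, adjusted p = 0.198). Lost minus not established embryos gave -1.87 (exact permutation test, two-sided, p = 0.119, adjusted p = 0.198), and -1.02 with all 45 libraries (exact permutation p = 0.395, adjusted p = 0.647). Maintained minus lost embryos gave 0.33 (exact permutation test, p = 0.627, adjusted p = 0.627), which turned to -0.38 with all 45 libraries. With CSF2 the log2 ratio averaged 5.33 ± 2.04 (SD, n = 18), and with vehicle 4.75 ± 2.59 (SD, n = 22; permutation p = 0.463, adjusted p = 0.579). That difference of 0.58 was 1.03 without not established replicate 14 and 0.26 without replicate 25. With all 45 libraries, any pregnancy against none gave -1.25 (permutation p = 0.0957, adjusted p = 0.276). Values with all 45 libraries include the 5 shallow ones, where GAPDH had 0 or 1 count and the 0.5 added weighs heavily. Counting error alone would give the log2 ratio an SD of 1.18 to 2.06 in those 5.

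The difference was smaller between the middles of the groups than between their means. As a difference in medians, any pregnancy against none was -0.56 (permutation p = 0.167, adjusted p = 0.405), from medians of 4.19 and 4.75. Without not established replicate 14, the difference in means was -1.32. Counting error alone would give an SD of the log2 ratio between 0.0160 and 0.445 in every deeper library but replicate 14, where it would give 1.18. The ratio itself varied with an SD of 2.35 over the 40 libraries.

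**Figure D3:**
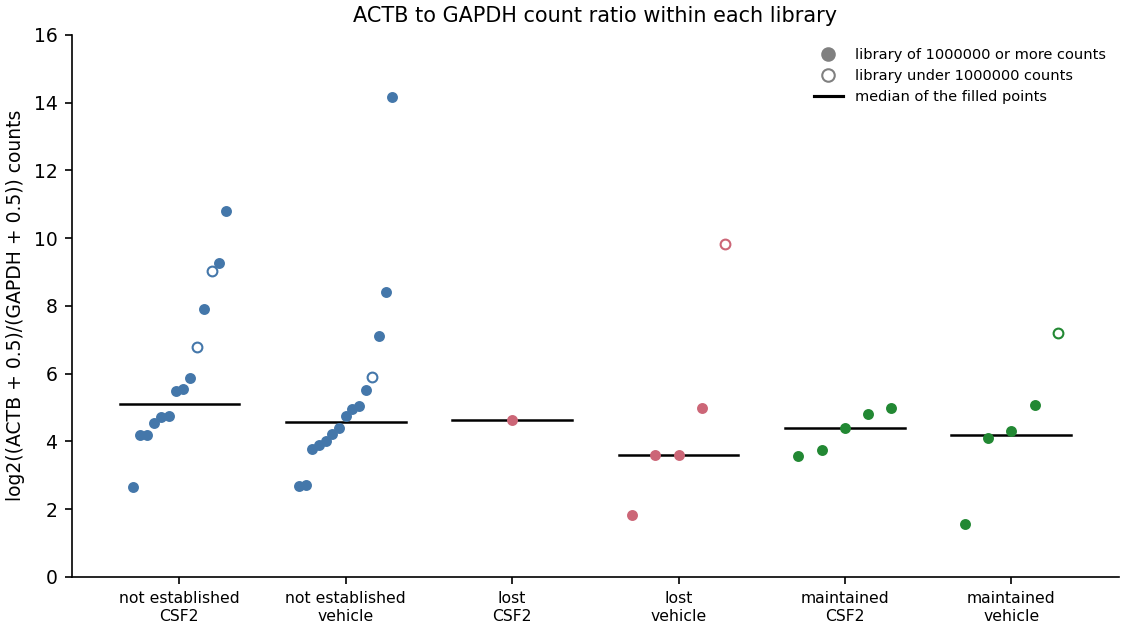
Log2 ratio of ACTB to GAPDH counts, with 0.5 added to each, in each of the 45 libraries by outcome and treatment. Filled points are libraries of 1000000 or more counts, open points the others, and bars the medians of the filled points; the 14 deeper libraries with a pregnancy lie between 1.55 and 5.06, and not established libraries reach 14.15.

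The spread between embryos was compared on log2(CPM + 1) after each group was centred on its median. For GAPDH the SD was 0.87 in maintained (n = 9) and 2.55 in not established embryos (n = 26; exact permutation test, two-sided, p = 0.0935). For ACTB the order was the other way, with an SD of 0.70 in maintained and 0.44 in not established embryos (n = 9 and 26; exact permutation test, p = 0.115). After adjustment over the 4 such tests both had p = 0.229. The ACTB spread of maintained embryos came largely from replicate 6, since without it the difference in SD went from 0.27 to -0.013. Between CSF2 and vehicle, the SD was 0.53 and 0.50 for ACTB (permutation p = 0.822) and 2.25 and 2.34 for GAPDH (permutation p = 0.940), both with an adjusted p of 0.940. Without not established replicate 14, the vehicle SD of GAPDH was 1.498 and the difference in SD, CSF2 minus vehicle, went from -0.084 to 0.75 (permutation p = 0.273, adjusted p = 0.364). Without not established replicate 25, the CSF2 SD was 1.72 and the difference -0.62 (permutation p = 0.773, adjusted p = 0.960).

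Beside the most widely read genes of these embryos, ACTB was one of the steadier and GAPDH one of the least steady. In all 40 deeper libraries, 120 genes reached at least 5 counts, ACTB among them. Its SD of log2(CPM + 1), 0.51, was the 13th lowest of the 120, whose SDs ran from 0.29 to 2.53 with a median of 1.17. GAPDH was not in the set because of replicate 14, and its SD of 2.29 ranked 119 of 121 when it was added. The coefficient of variation was 32.3% for ACTB, rank 18 of 120 from the lowest, and 84.2% for GAPDH, rank 111 of 121.

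The members were also set beside genes of like mean level, within 2-fold. Of 58 genes of the set with a mean CPM near that of GAPDH, 56 had a lower SD and 2 a higher one, with a median of 1.53. Some of the genes near GAPDH had nearly the same values. ENSBTAG00000045710, ENSBTAG00000046351, ENSBTAG00000047046 and ENSBTAG00000047154 had means from 841 to 850 CPM and SDs of 0.54. Whether such rows share reads was not tested, so counts and ranks over these genes and their pairs may take like rows more than once. Of 13 genes near ACTB, 7 had a lower SD and 6 a higher one, with a median of 0.49. These genes had to reach 5 counts in every library, which GAPDH did not, so the choice of these genes bears on its place among them.

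**Figure D4:**
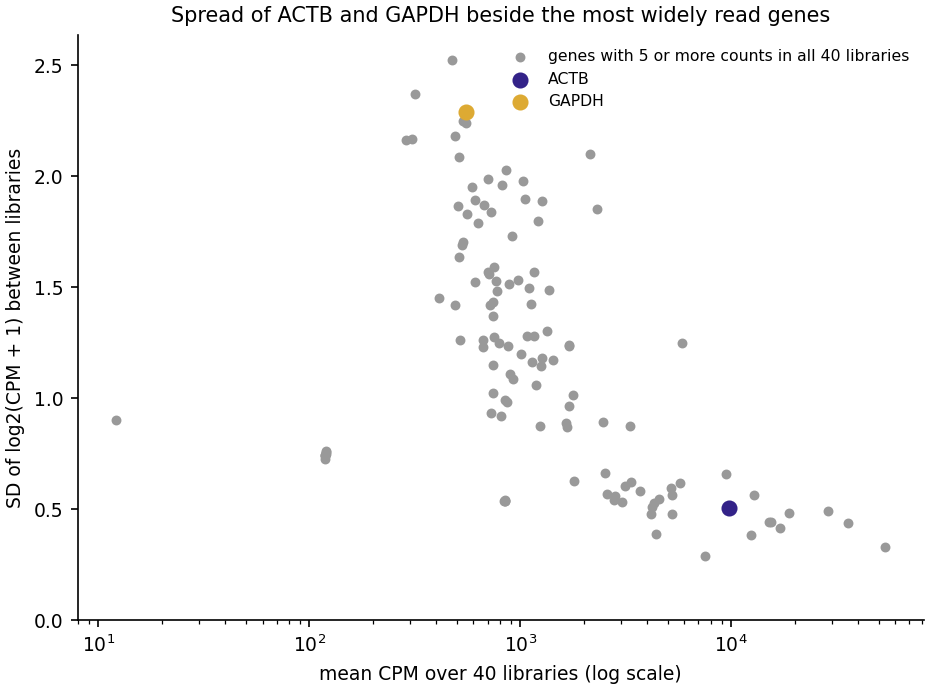
SD of log2(CPM + 1) between the 40 deeper libraries (y axis) against mean CPM (x axis, log scale) for the 120 genes with 5 or more counts in all of them, with ACTB and GAPDH marked. ACTB lies at an SD of 0.51 and GAPDH at 2.29, near the top of the plot.

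A pair of steady reference genes keeps a steady ratio between samples. Over the 7260 pairs that can be formed from the 120 genes and GAPDH, the SD of the log2 ratio had a median of 1.76 and ran from 0.029 to 3.88. ACTB with GAPDH, at 2.35, had a higher SD than 82.1% of the pairs. Averaged over all its pairs, the SD was 1.30 for ACTB, the 4th lowest of 121 genes, and 2.73 for GAPDH, rank 119. The lowest of any gene was 1.24.

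Across the 40 deeper libraries, ACTB and GAPDH levels were weakly correlated (log2(CPM + 1), Pearson's r = 0.36, permutation p = 0.0210; Spearman's rho = 0.40, permutation p = 0.0119). Over the 5 relations computed for this pair the adjusted p values were 0.0455 and 0.0298. Without the 2 libraries farthest from the median of ACTB, not established replicate 25 and maintained replicate 6, r was 0.39 (permutation p = 0.0149). Both levels share the library total as their denominator. With the shallow libraries the points fall into 2 clusters, so no pooled value is given.

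Within CSF2 libraries r was 0.62 (n = 18, permutation p = 0.0045, adjusted p = 0.0225) and rho was 0.72 (permutation p = 0.00121, adjusted p = 0.00605). Without the 2 farthest CSF2 libraries, not established replicate 25 and maintained replicate 9, r was 0.46 and no longer passed the test (permutation p = 0.0773). Within vehicle libraries r was 0.17 (n = 22, permutation p = 0.423, adjusted p = 0.529) and rho was 0.12 (permutation p = 0.606, adjusted p = 0.606), and the difference between the treatments was not tested. Within not established embryos r was 0.43 (n = 26, permutation p = 0.0273, adjusted p = 0.0455) and rho was 0.45 (permutation p = 0.0202, adjusted p = 0.0336). Without replicates 17 and 25, the 2 farthest, r was 0.32 and no longer passed the test (permutation p = 0.120). Within maintained embryos r was 0.080 (n = 9, exact permutation p = 0.855) and rho was 0.30 (exact permutation p = 0.437), and r was 0.91 without replicates 6 and 9 (exact permutation p = 0.0117).

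**Figure D5:**
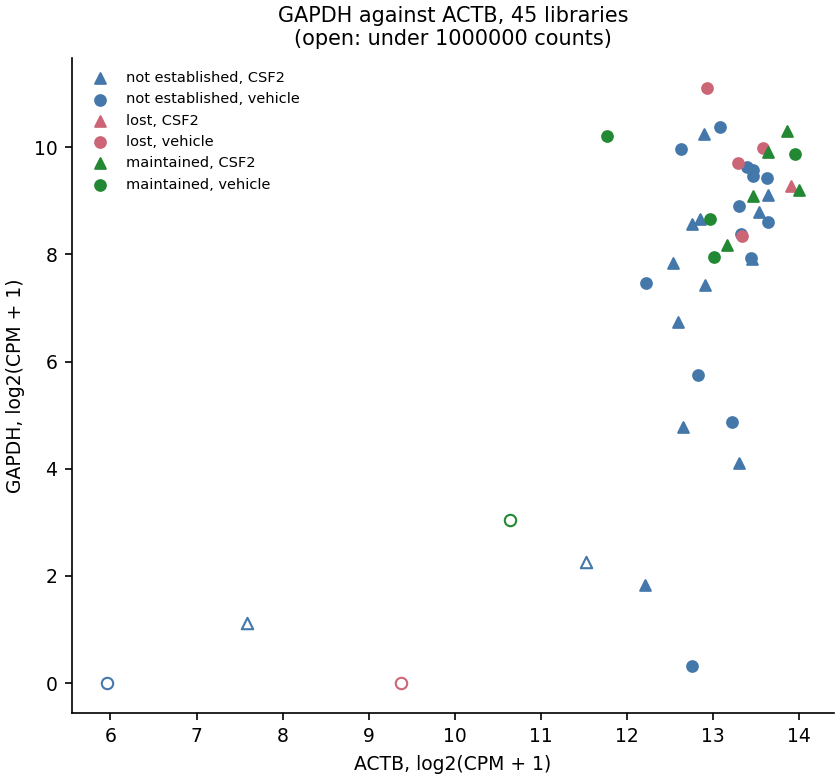
GAPDH (y axis) against ACTB (x axis), both as log2(CPM + 1), in each of the 45 libraries, by outcome (colour) and treatment (triangles for CSF2, circles for vehicle), with open symbols for libraries under 1000000 counts. Deeper libraries spread along the GAPDH axis more than along the ACTB axis (Pearson's r = 0.36, n = 40). The shallow libraries lie at lower levels of ACTB than all deeper ones and low on the GAPDH axis.

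No relation of either level with the depth or the number of genes read passed the test. Over the 40 deeper libraries, r with the number of genes at 5 or more counts was 0.17 for ACTB (permutation p = 0.287) and 0.21 for GAPDH (permutation p = 0.190). With the log10 of the library total r was -0.014 for ACTB (permutation p = 0.932) and 0.21 for GAPDH (permutation p = 0.189). Spearman's rho lay between -0.048 and 0.053 in these 4 relations, with permutation p from 0.746 to 0.914, and the smallest adjusted p was 0.381. Without the 2 libraries farthest in total, r of GAPDH with the total was 0.32 (permutation p = 0.0494).

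The genes whose CPM most resembled each member were sought among the same 120 genes by Spearman's rho over the 40 deeper libraries. For ACTB these were ENSBTAG00000013468 (rho = 0.63), at 4408 ± 1151 CPM (SD, n = 40), and ENSBTAG00000004556 (rho = 0.56), at 1250 ± 813 CPM. For GAPDH they were ENSBTAG00000014809 (rho = 0.46), at 529 ± 305 CPM, and ENSBTAG00000020908 (rho = 0.46), at 2323 ± 1615 CPM. The median rho over the genes searched was 0.059 for ACTB and 0.037 for GAPDH, and all levels share the library total. ACTB and GAPDH have close relatives and processed copies in mammalian genomes, and the counting of reads that match several places was not given in the sources used here, so both levels are uncertain to that extent.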

How the data were processed

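What the authors deposited is a single table of raw counts, whole numbers of reads for each of 24616 genes in 45 libraries, not normalized. Per the labels' protocols, RNA was isolated with the RNeasy Micro Kit, and NuGEN's Ovation SoLo chemistry with a bovine depletion step gave the libraries. The submitters' processing notes name UMD3.1, bosTau8 and edgeR, without roles. The aligner, the counting program and the treatment of duplicates and strand were not given in the sources used here. A replicate is an embryo, and columns were assigned to samples through the titles.

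The members, tests and gene lists were chosen with earlier results of these data known, including the choice of the 40 libraries of 1000000 or more counts for the main values. The supplied RefSeq table matched 0 identifiers, so lists of other reference, glycolysis, actin cytoskeleton and cell type marker genes were not run. Named genes were the 2 members and the 2 genes nearest to each by Spearman's rho.

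Genes were filtered with filterByExpr on the outcome group, scaled by TMM and tested in R 4.3.3 with edgeR 4.0.16 (robust quasi-likelihood F test). SE was the log2 fold change over the square root of F, and 95% intervals used its degrees of freedom. The interaction was fitted without lost embryos, which had 1 CSF2 library. The fits were tested on simulated data. Permutation tests were two-sided, with 100000 resamples, or exact if either group held fewer than 10 libraries (Python 3.11.15, numpy 2.4.6, scipy 1.17.1). Alternatives were DESeq2 1.42.0, other scalings, filters, covariates, pseudocounts and sets of libraries, and a replicate block. Added after seeing the data were all libraries with library totals, libraries numbered 1 to 10 without the block, and single libraries left out of the spread tests.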

Additional observations from a re-analysis of the deposited data

Results flagged for a closer look

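In groups of 4 to 10 embryos, a library was singled out when its gap to its neighbour took up more of the group's range than Dixon's 95% critical value. Of 30 such checks of ACTB, GAPDH and their ratio, 7 were met. The groups checked share libraries, so the checks are not independent and no rate by chance is set beside them. Among the deeper libraries, maintained replicate 6 was the lowest of 9 in ACTB, at 11.77 on log2(CPM + 1), and in the log2 ratio of ACTB to GAPDH, at 1.55. With all libraries, lost replicate 5 was the lowest in ACTB, at 9.37, and in GAPDH, at 0, both among 6 lost embryos and among the 5 of them with vehicle. Maintained replicate 8 was the lowest of 10 maintained embryos in GAPDH, at 3.05. Lost replicate 5 and maintained replicate 8 are libraries under 1000000 counts, and maintained replicate 6 had 6139032 counts. What sets these libraries apart was not tested.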

How the results depend on the processing

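Over 22 results of the 2 members and 139 alternative values, other than leaving out single libraries, 129 kept their direction and their side of the threshold and 10 changed direction, none of which had passed a test. With all 45 libraries, maintained minus lost turned to -0.25 for ACTB and -0.38 for the log2 ratio, the ACTB interaction to -0.062, and the ACTB difference in SD to -0.63 between maintained and not established embryos and to -0.33 between CSF2 and vehicle. Library totals gave ACTB -0.021 for maintained minus lost. TMM-scaled CPM gave an ACTB difference in SD of -0.025 between treatments, and 10 CPM added gave 0.062 for GAPDH. With each library left out in turn, no adjusted p fell below 0.05. Directions turned in maintained minus lost, which ran from -0.17 to 0.19 for ACTB, from -0.44 to 0.088 for GAPDH and from -0.15 to 0.64 for the ratio. They also turned for ACTB with CSF2, from -0.050 to 0.10, and for the differences in SD, from -0.013 to 0.31 (ACTB by outcome), from -0.0091 to 0.13 (ACTB by treatment) and from -0.62 to 0.75 (GAPDH by treatment). The cause of these turns was not tested.

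No resemblance of same-numbered embryos was seen: the deviations of 19 same-numbered pairs from their group means correlated between -0.03 and 0.04. For 390 other-numbered pairs the correlations lay between -0.064 and 0.098. A pairing that leaves no likeness over all genes would not be seen this way. With a replicate block on numbers 1 to 10, maintained minus lost was -0.067 for ACTB and -0.14 for the ratio, and GAPDH in maintained minus not established was 1.97 ± 1.30 (SE, adjusted p = 1, edgeR), against 1.15 without the block, and edgeR called 0 genes in each outcome comparison with the block (202 to 297 at an unadjusted p below 0.05) and 0 without it (328 to 627).

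Counts of genes called depended on the settings, which also differed in the number of genes tested. EdgeR tested 7476 genes, or 5010 for the interaction, and DESeq2 5463 to 6303. With no filter 12790 to 12969 were tested, and with all 45 libraries 6909, or 4603 for the interaction. Maintained minus not established had 10 (0.134%), against 150 with DESeq2 (2.75%) and 1399 with no filter (10.8%). It had 4 with all 45 libraries (0.0579%, with TMM or totals) and 5 without the treatment term (0.0669%). Lost minus not established had 3, against 642, 395, 57 (13 with totals) and 6. All 3 were higher in lost embryos, whereas DESeq2 had 37 higher and 605 lower. With no filter 384 were higher and 11 lower, and with all 45 libraries 56 were higher and 1 lower. Maintained minus lost had 0, against 603 with DESeq2, 18 with no filter, 37 with all 45 libraries (1 with totals) and 1 with DESeq2's size factors. Any pregnancy minus not established had 46, against 242 with DESeq2, 2685 with no filter and 24 with all 45 libraries and totals. CSF2 minus vehicle had 50, against 209 with DESeq2 and 2741 with no filter. The interaction had 0, against 469 with DESeq2 and 2 with all 45 libraries. GAPDH rests on 0 or 1 count in each of the 5 shallow libraries, so its level there has wide counting intervals.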
